A study of Mus musculus with 12 samples.

Results

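The genes described here are 45 genes of the cell cycle, 24 that act in mitosis and 21 that act in S phase, measured by RNA sequencing in type 1 conventional dendritic cells (cDC1) of the mouse inguinal lymph node. They were taken from a list of names, with transcript values summed to genes, and are 45 of the 53458 genes in the deposited tables, of which 31027 had a count in at least 1 library. The 12 libraries fall into 4 groups of 3, labelled Tumor-CD40 (subcutaneous KPC tumor and CD40 agonist), NoTumor-CD40 (agonist without a tumor), Tumor-NoCD40 (tumor without agonist) and NoTumor-NoCD40 (neither). KPC names tumor cells of a mouse pancreatic cancer model, and the agonist stimulates CD40, a receptor on dendritic cells that T cells engage to license them. All groups share the tissue and the cell type. Strain, sex, age, agonist dose, times and sort gates are not given in the sources used here, and whether libraries come from separate mice is not given either. The p-values therefore measure the spread between these libraries, which may be technical.

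The cell cycle copies the genome in S phase and divides it in mitosis. Before S phase the MCM helicase is loaded on origins with the help of Cdc6 and Cdt1, nucleotide enzymes supply the DNA precursors, and Pcna holds the polymerases on the fork. In mitosis cyclin B with Cdk1 starts division, the Aurora and Polo kinases and the Bub1 checkpoint control the spindle, and the anaphase-promoting complex ends the phase. S phase genes are classic targets of E2F factors, while many mitosis genes carry CCAAT boxes and a cell cycle homology region (CHR) bound by the DREAM and MuvB complexes. Conventional dendritic cells arise from precursors that divide in bone marrow, and some division goes on in the lymphoid organs; mature dendritic cells are regarded as largely non-dividing.

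Total expected counts ran from 22855143 to 27163393 over the libraries, and 18095 genes passed a filter on low counts, all 45 cell cycle genes among them. Values are CPM, counts per library scaled with TMM factors to the same total, when 1 gene is compared between libraries, and TPM, which are scaled by transcript length, when levels of different genes are compared or added. The label cDC1 was checked on Xcr1, Clec9a and Batf3, which were present in every library at 9.92 to 124, 26.4 to 259 and 65.6 to 152 TPM. Markers of other cells were present too. Over the libraries 15 B cell markers summed to 102 to 1539 TPM, 12 T cell markers to 173 to 1143 TPM and 10 plasma cell markers to 39.5 to 714 TPM. The 15 cDC1 markers summed to 752 to 3491 TPM. The purity of the libraries was not tested. Library 3 of NoTumor-CD40 stood apart in the cell cycle genes, being the lowest of 12 libraries for 38 of 45 genes in CPM, and it had the lowest Xcr1 as well. Library 2 of NoTumor-NoCD40 was the highest of 12 for 24 of 45. In TPM these counts were smaller, at 21 and 16 of 45. Both libraries are in the comparison in which most of the genes were lower, so the values without each are given with it.

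The promoters of 5 members are shown as examples of both classes, and Uhrf1 as the gene with the highest log2 fold change of the 45 in the first comparison below. Each is the RefSeq window on build GRCm38.p6 from 250 bases before to 50 bases after the transcription start, written along the gene's strand. Capitals mark 3 kinds of motif on either strand, with touching or overlapping matches run together. The first is the CCAAT box. The E2F core was searched for in the form TTCCCGC, in the form TTGGCGC, in the form TTCGCGC and in the form TTGCCGC. The CHR core was searched for as TTTGAA or else as TTTAAA. Cdk1, the mitotic kinase, is at chr10:69352863-69353162 on the minus strand and holds 3 CCAAT, 2 E2F and 2 CHR matches. Ccnb2, a B-type cyclin, is at chr9:70421505-70421804 on the minus strand and holds 3 CCAAT and 2 CHR matches. Mcm6, a subunit of the replicative helicase, is at chr1:128359656-128359955 on the minus strand and holds 5 E2F and 2 CCAAT matches. Dtymk, thymidylate kinase, is at chr1:93801885-93802184 on the minus strand and holds 1 CCAAT and 1 E2F match. Uhrf1, which reads hemimethylated DNA behind the fork, is at chr17:56303087-56303386 on the plus strand and holds 3 CCAAT and 1 E2F match.
Cdk1: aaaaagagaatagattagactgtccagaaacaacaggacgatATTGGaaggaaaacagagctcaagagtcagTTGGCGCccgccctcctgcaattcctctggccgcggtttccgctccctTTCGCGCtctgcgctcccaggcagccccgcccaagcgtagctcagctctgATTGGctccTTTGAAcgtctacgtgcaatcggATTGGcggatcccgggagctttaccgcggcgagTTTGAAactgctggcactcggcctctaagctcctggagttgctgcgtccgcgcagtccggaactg
Ccnb2: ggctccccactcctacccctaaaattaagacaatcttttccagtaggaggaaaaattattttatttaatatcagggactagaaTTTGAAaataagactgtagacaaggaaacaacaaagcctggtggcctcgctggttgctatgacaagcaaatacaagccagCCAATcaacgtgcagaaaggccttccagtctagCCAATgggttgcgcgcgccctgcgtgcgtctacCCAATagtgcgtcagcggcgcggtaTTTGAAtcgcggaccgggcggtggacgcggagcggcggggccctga
Mcm6: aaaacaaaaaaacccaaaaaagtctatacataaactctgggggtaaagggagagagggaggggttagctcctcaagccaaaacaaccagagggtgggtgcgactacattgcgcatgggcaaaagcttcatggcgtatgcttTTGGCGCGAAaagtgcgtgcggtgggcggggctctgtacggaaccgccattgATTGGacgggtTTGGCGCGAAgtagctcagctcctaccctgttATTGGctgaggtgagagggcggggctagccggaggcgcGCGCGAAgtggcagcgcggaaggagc
Dtymk: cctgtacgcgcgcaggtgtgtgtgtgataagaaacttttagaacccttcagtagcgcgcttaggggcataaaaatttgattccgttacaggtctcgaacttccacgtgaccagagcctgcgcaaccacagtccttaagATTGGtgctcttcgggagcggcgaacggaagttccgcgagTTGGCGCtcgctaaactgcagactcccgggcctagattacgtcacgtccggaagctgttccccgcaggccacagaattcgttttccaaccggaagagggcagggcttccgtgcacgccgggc
Uhrf1: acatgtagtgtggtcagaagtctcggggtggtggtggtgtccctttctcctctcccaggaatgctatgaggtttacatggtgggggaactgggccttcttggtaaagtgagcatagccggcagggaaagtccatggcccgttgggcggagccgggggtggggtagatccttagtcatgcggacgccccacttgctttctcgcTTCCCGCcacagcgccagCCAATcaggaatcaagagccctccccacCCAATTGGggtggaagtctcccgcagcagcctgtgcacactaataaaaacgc

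A window was found for 38 of the 45 genes. Where a gene had more than 1 window, as 5 members did, the first listed was used. CCAAT was in 85% of the 20 mitosis windows, 55.6% of the 18 S phase windows and 37.9% of the 27025 windows of all genes, 1 per gene. A CHR core was in 90% of mitosis, 27.8% of S phase and 27.8% of all windows. An E2F core was in 20% of mitosis, 61.1% of S phase and 9.69% of all windows. CCAAT and a CHR core stood together in 80% of mitosis, 16.7% of S phase and 10.9% of all windows. These are letter matches, not measured binding. In NoTumor-CD40 over NoTumor-NoCD40 libraries, the median log2 fold change was -0.61 for the 15 members with an E2F core and -0.69 for the members without, and -0.69 for the 23 members with a CHR core and -0.56 for those without. For CCAAT it was -0.63 for the 27 members with the box and -0.76 for those without. The splits overlap with the classes: 18 of the 23 members with a CHR core are mitosis genes. Of the 15 with an E2F core, 11 are S phase genes. Among mitosis genes the medians with and without were -0.70 and -0.73 for CHR, -0.72 and -0.68 for E2F and -0.69 and -0.82 for CCAAT. Among S phase genes they were -0.61 and -0.56, -0.56 and -0.76, and -0.58 and -0.53 in the same order.

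Cell cycle transcripts were present in all 12 libraries at moderate levels. The 45 genes summed to 874, 635 and 961 TPM in the Tumor-CD40 libraries, 573, 746 and 503 in NoTumor-CD40, 626, 904 and 922 in Tumor-NoCD40 and 817, 1072 and 794 in NoTumor-NoCD40. The NoTumor-CD40 libraries all lay below the NoTumor-NoCD40 libraries, while the Tumor-CD40 and Tumor-NoCD40 libraries overlapped each other and all other groups. S phase genes made up most of each sum, with 524.5 ± 118 TPM in Tumor-CD40, 404 ± 56.8 in NoTumor-CD40, 529 ± 97.1 in Tumor-NoCD40 and 578 ± 96.7 in NoTumor-NoCD40 (SD, n = 3 each). Mitosis genes summed to 299 ± 53.3, 203 ± 69.5, 288 ± 72.5 and 316 ± 58.1 TPM in the same order of groups. In bulk RNA, fewer dividing cells and less of these transcripts per cell cannot be told apart.

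**Figure D1:**
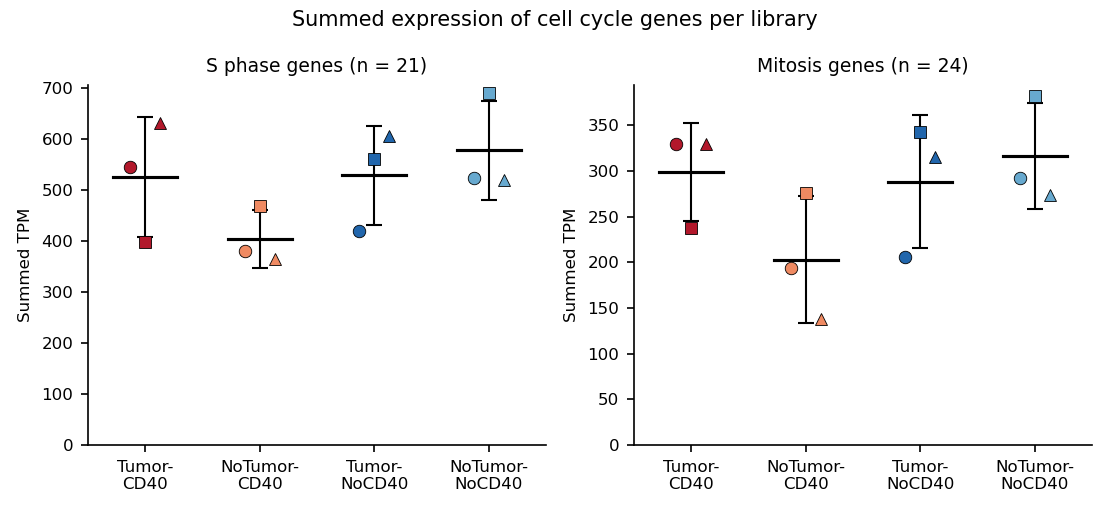
Summed TPM of the cell cycle genes per library (vertical axis, from 0) by group; each point is a library (circle, square and triangle for libraries 1, 2 and 3), the bar the mean of 3 and the whisker the SD. The lowest total, 503 TPM, is NoTumor-CD40 library 3 and the highest, 1072 TPM, is NoTumor-NoCD40 library 2.

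By level, Pcna, the sliding clamp of the replication fork, led with a mean of 94.4 TPM over 12 libraries and a range of 67.5 to 136 TPM. Cdk1 followed at 40.04 TPM, then the MCM subunits Mcm6 at 37.99, Mcm2 at 37.2, Mcm3 at 32.8 and Mcm7 at 32.5 TPM. Kif23, a kinesin of the midbody, lay among them with 33.4 TPM. At the low end were Anln (anillin, of the contractile ring) at 1.62 TPM, Cenpe (a kinetochore motor) at 2.70 and Cenpf (a kinetochore protein) at 2.85 TPM. Of the 45 genes, 29 averaged over 10 TPM. Several of these TPM levels come in good part from transcripts not annotated as protein-coding, such as retained introns and nonsense-mediated decay transcripts. These made up over 50% of the summed TPM of 10 members, among them Gins2 (95.9%), Kif23 (81.3%), Mcm2 (72.1%), Ccna2 (71.5%) and Cdk1 (64.8%). For Mcm2, 1 nonsense-mediated decay transcript held 71.1% of the TPM. Such transcripts held over 50% of the counts of 1 member, Gins2, at 84.8%. They also held 46.5% of the counts of Ccna2, 45.1% of Tyms, 41.1% of Tk1, 30.6% of Kif23 and 25.1% of Cdk1. Over protein-coding transcripts alone Pcna averaged 74.5 TPM, Mcm6 22.5, Mcm3 17.5, Cdk1 14.1, Mcm2 10.4, Kif23 6.25 and Gins2 0.668 TPM, so the order of levels depends on which transcripts are added. The differences between groups below rest on counts summed over all transcripts of a gene.

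The question of the first comparison, NoTumor-CD40 against NoTumor-NoCD40, is what the agonist did in cDC1 of mice without a tumor. Dtymk, which makes the precursor of dTTP, fell, and was the 1 member that passed the adjusted threshold; most other S phase and mitosis genes had lower values with the agonist without passing it. Of the 45 genes, 43 had a log2 fold change below 0, against 52.3% of all genes tested, and the median was -0.63, against -0.038 over all genes. At an unadjusted p under 0.05, 25 were lower (55.6% of the members, against 8.48% of all genes) and 1 was higher (against 9.89% of all genes). In 22 of 45 the NoTumor-CD40 libraries all lay below the NoTumor-NoCD40 libraries (against 12% of all genes), and in 0 they all lay above (11.2%). By the quasi-likelihood test of edgeR, Benjamini-Hochberg adjusted over all genes, 1 of 45 members passed an adjusted p of 0.05, as did 1.44% of all genes tested and, in the lower direction, 0.0829%. The SE of the members' log2 fold changes ranged from 0.18 to 0.50.

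**Figure D2:**
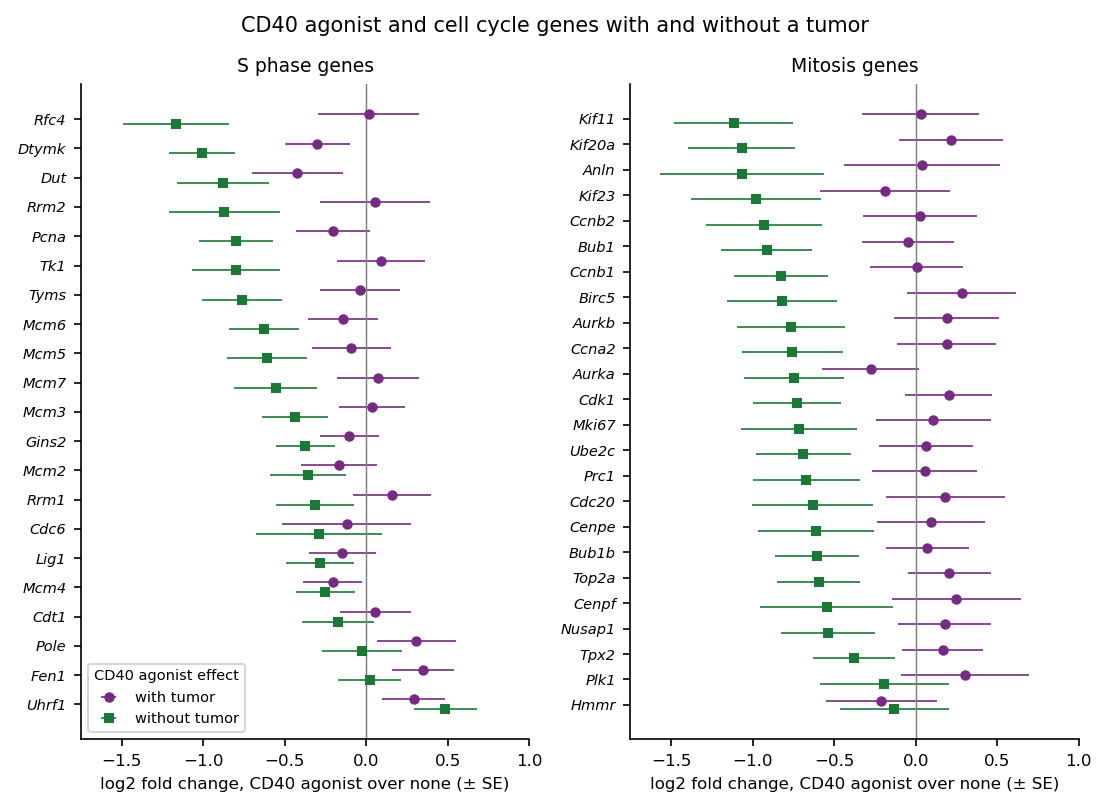
log2 fold change of each cell cycle gene with CD40 agonist over none, with tumor (purple circles) and without tumor (green squares), with SE as the whisker, for S phase genes (left) and mitosis genes (right). Without a tumor 43 of 45 values lie below 0 with Uhrf1 at 0.48, while with a tumor 30 lie above 0 and 15 below.

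The enzymes that make deoxynucleotides were lowest as a group, with all 6 members below 0 and a median log2 fold change of -0.83. Dtymk (chromosome 1, 93792576 to 93801934, GRCm38) had 14.1, 19.99 and 12.8 CPM in NoTumor-CD40 libraries, against 32.6, 33.3 and 28.4 CPM in NoTumor-NoCD40 libraries. The groups did not overlap, and the change was -1.01 ± 0.20 (SE; edgeR quasi-likelihood adjusted p = 0.0278). This call was lost without 1 of 6 libraries in turn, at adjusted p from 0.0538 to 0.184; they are libraries 1 and 3 of NoTumor-CD40, library 1 of Tumor-NoCD40 and each NoTumor-NoCD40 library. It was also lost with a block by title prefix (adjusted p = 0.0899), with only the groups compared in the edgeR fit (0.0707) and by limma on log2(TPM + 1) or log2(TPM + 0.1) (0.108 and 0.107). The block fit in effect leaves out NoTumor-NoCD40 library 3, which alone has its prefix. Dut, which removes dUTP, had 34.6, 29.7 and 19.8 CPM in NoTumor-CD40 libraries, against 47.8, 65.8 and 41.3 CPM in NoTumor-NoCD40 libraries. Tyms, which makes dTMP, had 21.9, 27.7 and 17.01 CPM with agonist, against 39.6, 44.9 and 28.4 CPM without, and Tk1, the salvage kinase for thymidine, had 26.97, 35.3 and 19.8 CPM with agonist, against 45.8, 51.1 and 45.9 CPM without. For these 3 genes too every agonist library lay below every library without it, with log2 fold changes of -0.88 for Dut, -0.76 for Tyms and -0.80 for Tk1. Their edgeR adjusted p-values were 0.136, 0.140 and 0.153, so none of the 3 passed.

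At the replication fork the 6 members differed among themselves. Pcna (chromosome 2, 132249162 to 132253314) had 128, 142 and 84.1 CPM in NoTumor-CD40 libraries, against 200.3, 259 and 158 CPM in NoTumor-NoCD40 libraries. Rfc4, a subunit of the clamp loader that places Pcna on DNA, had 8.35, 9.31 and 6.98 CPM with agonist, against 18.5, 23.9 and 12.9 CPM without. Neither gene's groups overlapped, with log2 fold changes of -0.80 ± 0.23 for Pcna and -1.17 ± 0.32 for Rfc4 (SE), and neither passed by edgeR (adjusted p = 0.0999 and 0.0922). Their reads may be divided less certainly, since annotated pseudogenes carry Pcna's name and exons of Rfc4 overlap Eif4a2 on the other strand. Uhrf1 ran the other way, at 111, 92.7 and 141 CPM in NoTumor-CD40 libraries, against 77.7, 98.8 and 69.5 CPM in NoTumor-NoCD40 libraries. Its groups overlapped, its log2 fold change was 0.48 ± 0.19 (edgeR adjusted p = 0.211), and its highest value of the 12 was in the library in which 38 of the other genes were lowest. The flap endonuclease Fen1 was at 0.020 ± 0.19 and the leading-strand polymerase subunit Pole at -0.025 ± 0.24; these 2 and Uhrf1 are named for lying apart, having been chosen after their values were seen.

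The helicase subunits Mcm2 to Mcm7 were all below 0, with log2 fold changes from -0.63 to -0.25 and a median of -0.50. Mcm6 had 78.2, 98.3 and 54.7 CPM in NoTumor-CD40 libraries, against 98.4, 147 and 111 CPM in NoTumor-NoCD40 libraries. The groups stood apart by a narrow margin, with 98.31 CPM in the highest NoTumor-CD40 library and 98.38 CPM in the lowest NoTumor-NoCD40 library, and the log2 fold change was -0.63 ± 0.21 (edgeR adjusted p = 0.158). The licensing and initiation factors Cdc6, Cdt1 and Gins2 had log2 fold changes between -0.37 and -0.17, with a median of -0.29. Over the 21 S phase genes the median was -0.44, with 19 below 0.

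All 24 mitosis genes were below 0 in this comparison, with a median of -0.72. The cyclins and their kinase were close together, with values from -0.93 to -0.73. Cdk1 (chromosome 10, 69335146 to 69352938) had 22.1, 26.9 and 19.9 CPM in NoTumor-CD40 libraries, against 39.3, 46.4 and 28.2 CPM in NoTumor-NoCD40 libraries. Ccnb1, its B-type cyclin partner, had 16.4, 18.1 and 9.52 CPM with agonist, against 28.2, 33.3 and 16.5 CPM without. The Cdk1 groups did not overlap and the Ccnb1 groups did, at 1 library each. The log2 fold change was -0.73 ± 0.27 for Cdk1 and -0.83 ± 0.29 for Ccnb1 (edgeR adjusted p = 0.187 and 0.165).

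Among the kinases of the spindle checkpoint, Bub1 had 13.8, 11.7 and 5.95 CPM in NoTumor-CD40 libraries, against 17.1, 22.8 and 19.3 CPM in NoTumor-NoCD40 libraries. The groups were apart, with a log2 fold change of -0.91 ± 0.28 (edgeR adjusted p = 0.125), and the 6 kinase and passenger genes ran from -0.91 to -0.19. Of the 10 spindle and kinetochore genes, the kinesins Kif11, Kif20a and Kif23 and the contractile ring gene Anln had log2 fold changes from -1.12 to -0.98, and the other 6, the motor Cenpe among them, from -0.67 to -0.13. Kif11, the kinesin that pushes spindle poles apart, had 20.6, 25.9 and 7.02 CPM with agonist, against 41.98, 42.8 and 31.3 CPM without. Kif20a, a kinesin of the central spindle, had 12.4, 18.1 and 8.33 CPM with agonist, against 27.6, 32.2 and 21.6 CPM without. In both, all 3 agonist libraries were lower and library 3 was the lowest of them. The log2 fold changes were -1.12 ± 0.36 for Kif11 and -1.07 ± 0.33 for Kif20a (edgeR adjusted p = 0.142 and 0.125). The APC activator Cdc20 and the ubiquitin-conjugating enzyme Ube2c were at -0.63 and -0.69, 2 genes that are the whole of their role group. Mki67, a common mark of dividing cells, had 57.8, 103 and 34.8 CPM with agonist, against 86.8, 132 and 102 CPM without, and Top2a, the topoisomerase that untangles chromosomes, had 71.3, 102 and 63.0 CPM, against 103, 152 and 100.4 CPM. Both overlapped between the groups, at log2 fold changes of -0.71 and -0.59, and they too are named as a whole role group.

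**Figure D3:**
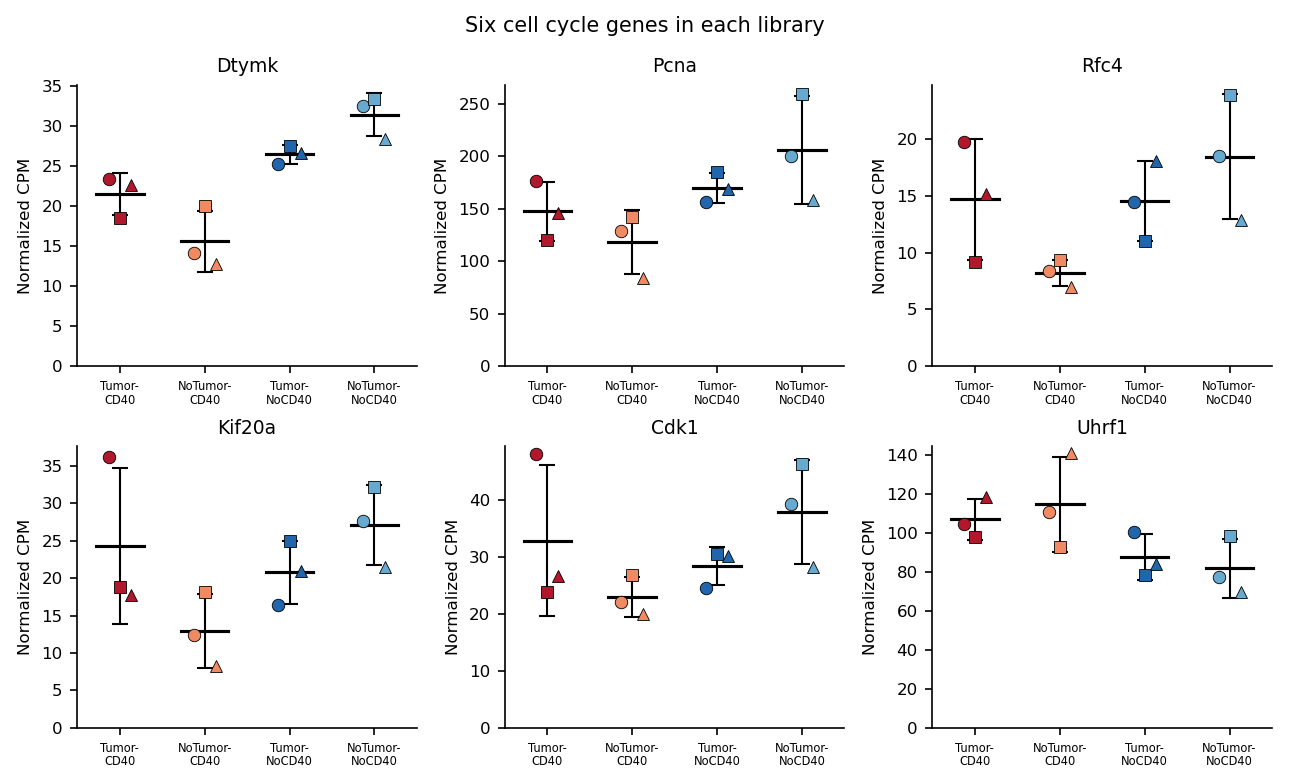
Normalized CPM (vertical axis, from 0) of Dtymk, Pcna, Rfc4, Kif20a, Cdk1 and Uhrf1 by group; each point is a library (circle, square and triangle for libraries 1, 2 and 3), the bar the mean of 3 and the whisker the SD. In all but Uhrf1 the NoTumor-CD40 group has the lowest mean, and Dtymk at 15.6 ± 3.83 CPM lies below NoTumor-NoCD40 at 31.4 ± 2.65 CPM.

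How many genes were lower at an unadjusted p under 0.05 depended on single libraries. Without NoTumor-CD40 library 3 the count was 8 of 45 (against 3.26% of all genes), without NoTumor-NoCD40 library 2 it was 9 (against 4.83%), and without NoTumor-CD40 library 2 it was 30 (against 11.2%). The direction was less dependent: across the 12 fits that each left out 1 library, 41 to 44 members stayed below 0, with medians from -0.91 to -0.41. The ends of both ranges came from fits without a library of the groups compared. Fits without a Tumor library leave those groups whole and so test the direction little. The 45 genes also vary together across libraries, so their shared direction is not 45 separate observations. Where libraries share the prefix of their titles, the median difference (log2 CPM) over the 45 genes was -0.39 between the libraries numbered 1 and -0.63 between those numbered 2; the libraries numbered 3 do not share one.

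Markers of mature dendritic cells moved along with this comparison. The 16 markers summed to 17829, 11727 and 30512 TPM in NoTumor-CD40 libraries, against 13373, 7748 and 5301 TPM in NoTumor-NoCD40 libraries. Of these markers 6 passed the adjusted threshold as higher, against 1.36% of all genes tested. The 15 cDC1 markers summed to 1433, 2583 and 982 TPM in NoTumor-CD40 libraries, against 2175, 3036 and 3323 TPM in NoTumor-NoCD40 libraries, with 0 past the threshold. The library lowest in the cell cycle genes therefore had the highest sum of mature markers of the 12. Library 3 of Tumor-NoCD40 had the next highest, 26919 TPM, and the lowest cDC1 sum, 752 TPM, while its cell cycle genes were at a median of 0.10 above their means (log2 CPM). In that library the 12 T cell markers summed to 1143 TPM, the highest of the 12 libraries. The part of maturation or of cell mixture in the lower cell cycle values was not tested.

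**Figure D4:**
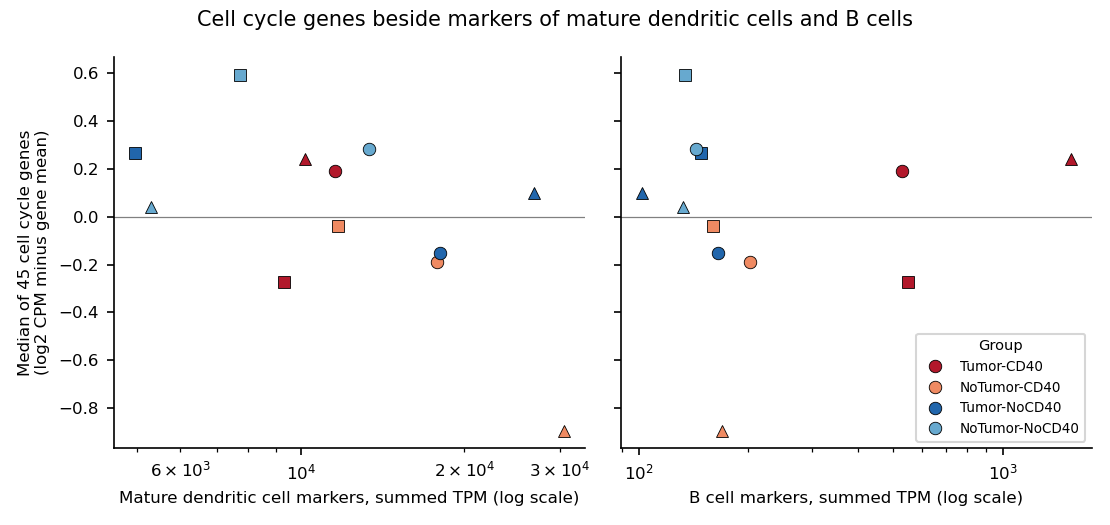
Median of the 45 cell cycle genes in each library (vertical axis, log2 CPM minus each gene's mean over 12 libraries) beside the summed TPM (log scale) of mature dendritic cell markers and of B cell markers, with color for the group and circle, square and triangle for libraries 1, 2 and 3. NoTumor-CD40 library 3 sits at -0.89 with the highest mature sum, 30512 TPM, and Tumor-NoCD40 library 3 at 0.10 with the next highest, 26919 TPM.

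In mice with a tumor, Tumor-CD40 against Tumor-NoCD40, the cell cycle genes as a whole were centred near 0. Of 45, 30 were above 0 (against 48.1% of all genes tested), the median log2 fold change was 0.055, and the range was -0.42 to 0.35. By edgeR, 0 of 45 passed the adjusted threshold, against 0.685% of all genes tested, and 0 had an unadjusted p under 0.05, against 9.96% of all genes. The mitosis median was 0.10 and the S phase median -0.039. The split of directions rested on single libraries: without Tumor-CD40 library 1, 16 members were above 0, and without Tumor-NoCD40 library 1, 19 were. Between libraries that share a title prefix the members' median difference (log2 CPM) was 0.45, -0.46 and 0.13 for the libraries numbered 1, 2 and 3.

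Single genes in this comparison had small differences. Fen1 had 59.5, 59.6 and 64.8 CPM in Tumor-CD40 libraries, against 40.7, 56.7 and 47.01 CPM in Tumor-NoCD40 libraries. Dut had 44.2, 21.6 and 43.96 CPM in Tumor-CD40 libraries, against 46.9, 55.2 and 45.2 CPM in Tumor-NoCD40 libraries, and Dtymk had 23.4, 18.6 and 22.6 CPM, against 25.2, 27.6 and 26.7 CPM. These were the 3 genes whose groups did not overlap, 1 higher and 2 lower, against 6.5% and 5.41% of all genes in these directions, with log2 fold changes of 0.35 for Fen1, -0.42 for Dut and -0.30 for Dtymk (edgeR adjusted p = 0.590, 0.680 and 0.684). Next by p came Uhrf1 at 0.29, Pole at 0.31, Mcm4 at -0.21, Aurka (Aurora A kinase) at -0.27 and Pcna at -0.20, with the libraries of both groups overlapping in each. Of the marker lists, B cell markers had the most genes past the threshold in this comparison: the 15 summed to 528, 549 and 1539 TPM in Tumor-CD40 libraries, against 165, 148 and 102 TPM in Tumor-NoCD40 libraries, and 12 passed as higher. Plasma cell markers summed to 714, 187 and 323 TPM in Tumor-CD40 libraries, against 89.9, 67.8 and 267 TPM in Tumor-NoCD40 libraries, with 1 of 9 tested past the threshold, also higher. The 9 germinal centre B cell markers summed to 51.1, 58.1 and 45.6 TPM in Tumor-CD40 libraries, against 56.2, 38.7 and 65.9 TPM in Tumor-NoCD40 libraries, with 5 of 8 tested above 0 and 0 past the threshold. Most of each sum was Fas and Bcl6, while Rgs13 and Mef2b were at 0 to 0.997 TPM in all 12 libraries. Whether B or plasma cell RNA contributes to the cell cycle values of the Tumor-CD40 libraries was not tested.

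The 2 agonist effects can be set against each other by the interaction, which subtracts the effect without tumor from that with tumor. Of 45 genes, 43 were above 0 (against 52% of all genes tested), with a median difference of 0.71 on the log2 scale. None passed the adjusted threshold by edgeR (0 of all genes did, 0%), and 10 were above 0 at an unadjusted p under 0.05, against 3.96% of all genes. The lowest p-values belonged to Kif20a at 1.28 ± 0.46, Rfc4 at 1.18 ± 0.45, Dtymk at 0.71 ± 0.29, Cdk1 at 0.93 ± 0.38 and Birc5 (survivin, of the chromosomal passenger complex) at 1.10 ± 0.47 (SE). Their adjusted p was 0.495 for the first 4 and 0.497 for Birc5, so a difference between the agonist effects with and without tumor was not shown for any member. The count of 10 became 23 without NoTumor-CD40 library 2, 2 without NoTumor-CD40 library 3, 1 without NoTumor-NoCD40 library 2 and 0 without Tumor-CD40 library 1. Further, it was 17 without Tumor-CD40 library 2 or Tumor-NoCD40 library 2, 6 without Tumor-NoCD40 library 3, 5 without Tumor-CD40 library 3 and 2 without Tumor-NoCD40 library 1. The share of all genes in these fits was 5.82%, 2.50%, 2.79% and 3.43% in the order of the first sentence, and 4.09%, 7.86%, 3.00%, 2.93% and 2.84% in that of the second. Marker lists moved with the interaction: the 15 B cell markers were all above 0 (median 2.15), 12 of them at an unadjusted p under 0.05. The 16 mature dendritic cell markers were all below 0 (median -1.36), 14 of them at an unadjusted p under 0.05, against 5.84% of all genes in this direction. In either list 0 markers passed the adjusted threshold by edgeR. Their part in the members' values was not tested.

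Without the agonist, Tumor-NoCD40 against NoTumor-NoCD40, 38 of 45 genes were below 0, against 51% of all genes tested, with a median of -0.21. None of the 45 passed the adjusted threshold by edgeR, and 0% of all genes did. At an unadjusted p under 0.05, 1 member was lower, Tk1, against 2.39% of all genes. Tk1 had 24.7, 43.4 and 27.2 CPM in Tumor-NoCD40 libraries, against 45.8, 51.1 and 45.9 CPM in NoTumor-NoCD40 libraries, a log2 fold change of -0.58 ± 0.27 (edgeR adjusted p = 0.775). The groups also did not overlap for Bub1 (-0.57), Tyms (-0.45), Birc5 (-0.45) and Dtymk (-0.25), so that 5 members lay wholly lower, against 4.92% of all genes. Cdk1 was at -0.41, Kif23 at -0.53 and Kif11 at -0.45, with overlapping libraries. The direction of Cdk1 reversed by limma on TPM, to 0.055 on log2(TPM + 1) and 0.057 on log2(TPM + 0.1). The 16 mature dendritic cell markers were all above 0, with a median of 0.77, and 0 passed the adjusted threshold by edgeR. Of them 5 were higher at an unadjusted p under 0.05, against 3.43% of all genes in this direction. Without NoTumor-NoCD40 library 2, the highest for most members in CPM, 22 of 45 were below 0 and the median was 0.015.

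With the agonist, Tumor-CD40 against NoTumor-CD40, 42 of 45 genes were above 0, against 48.9% of all genes tested, and the median was 0.47. By edgeR 0 members passed the adjusted threshold, against 0.199% of all genes, and 10 were higher at an unadjusted p under 0.05, against 5.47%. Cenpe had 19.7, 15.8 and 23.5 CPM in Tumor-CD40 libraries, against 9.95, 15.04 and 4.60 CPM in NoTumor-CD40 libraries, a log2 fold change of 0.998 ± 0.35 (edgeR adjusted p = 0.402). Kif20a had 36.3, 18.8 and 17.8 CPM in Tumor-CD40 libraries, against 12.4, 18.1 and 8.33 CPM in NoTumor-CD40 libraries, a log2 fold change of 0.90 ± 0.33 (edgeR adjusted p = 0.429), with overlapping groups. The other named genes were Aurkb (Aurora B kinase) at 0.85, Rfc4 at 0.83, the S and G2 phase cyclin Ccna2 at 0.75, the checkpoint gene Bub1b at 0.60, the topoisomerase Top2a at 0.57 and Mcm3 at 0.49. In 5 members, Ccna2, Bub1b, Cenpe, Anln and Fen1, all Tumor-CD40 libraries were higher, against 6.68% of all genes. The count of 10 became 1 without NoTumor-CD40 library 3 or without Tumor-CD40 library 1, and 17 and 18 without library 2 of Tumor-CD40 and of NoTumor-CD40. The share of all genes in these 4 fits was 3.90%, 4.66%, 5.91% and 6.31%. B cell markers summed to 528, 549 and 1539 TPM in Tumor-CD40 libraries, against 202, 160 and 170 TPM in NoTumor-CD40 libraries; all 15 were above 0 (median 2.85) and 7 passed the adjusted threshold. Plasma cell markers summed to 714, 187 and 323 TPM in Tumor-CD40 libraries, against 58.5, 48.1 and 53.1 TPM in NoTumor-CD40 libraries, with 3 of 9 tested past the threshold as higher. The 16 mature dendritic cell markers summed to 11579, 9308 and 10170 TPM in Tumor-CD40 libraries, against 17829, 11727 and 30512 TPM in NoTumor-CD40 libraries, all 16 below 0 (median -0.56) and 0 past the threshold. The 12 T cell markers were all above 0 (median 0.56), with 0 past the threshold. The part of these cells or states in the members' values was not tested. Between libraries sharing a title prefix, the members' median difference was 0.44, -0.12 and 1.10 (log2 CPM). The comparisons that share a group of libraries are not independent, since the NoTumor-CD40 libraries stand in both this comparison and the agonist comparison without a tumor.

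Across the 12 libraries the genes varied together to different degrees. Each gene's highest library had between 1.595 times (Mcm4) and 14.7 times (Anln) the CPM of its lowest, with a median of 2.96 times. Pearson's r of log2 CPM over 12 libraries had a median of 0.77 between mitosis genes, 0.62 between S phase genes and 0.64 between the classes. With group means removed the medians were 0.69, 0.56 and 0.58, and without NoTumor-CD40 library 3, over 11 libraries, 0.55, 0.50 and 0.49. These correlations are descriptions over libraries that share scaling and cell mixture. Kif11 (median r 0.86 with the other mitosis genes) and Birc5 (0.85) were closest to the rest, and Plk1 (0.44) and Hmmr (0.47) farthest among the mitosis genes. In S phase, Dut (0.79), Mcm5 (0.78) and Mcm7 (0.77) were closest, while Uhrf1 had a median r of -0.32 with its own class and -0.53 with mitosis genes, and Fen1 (0.19), Pole (0.23) and Cdt1 (0.30) were weakly related.

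**Figure D5:**
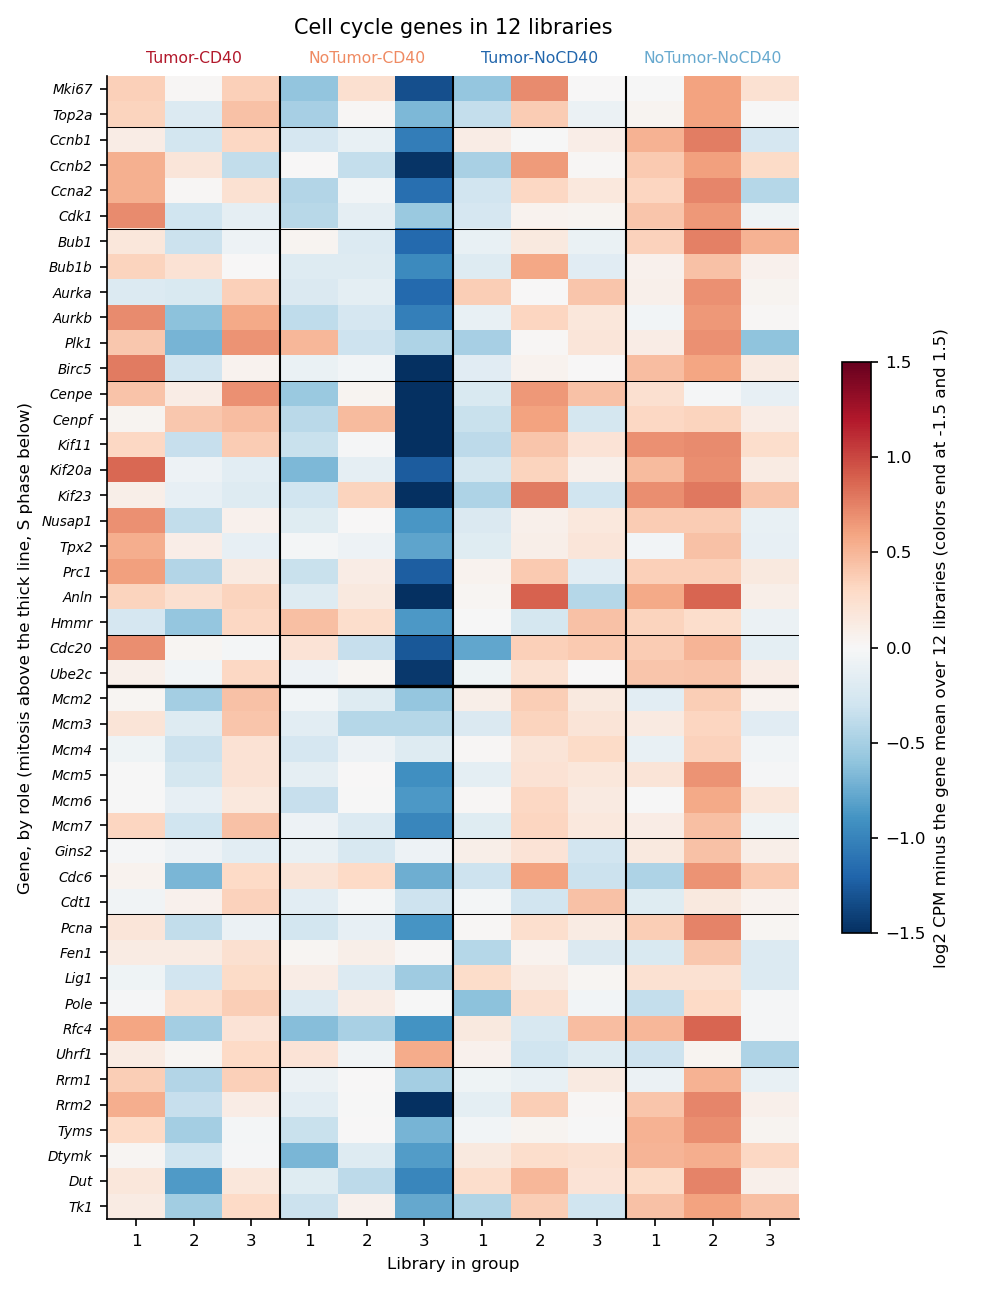
log2 CPM of each of 45 genes minus its mean over 12 libraries (color, ending at -1.5 and 1.5), with genes down the page by role and libraries across by group. The column of NoTumor-CD40 library 3 is lowest, at a median of -0.89 over the genes, that of NoTumor-NoCD40 library 2 is highest, at 0.59, and the row of Uhrf1 runs against the others.

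Other genes of the pathway, taken from lists, were placed beside the members in the agonist comparison without a tumor. There 1.44% of all genes tested passed and 52.3% were below 0. Genes of these lists were not followed through the alternative fits used for the members, so how far their calls depend on single libraries was not tested. Of 8 G1 cyclins and kinases, 1 passed: Ccnd2, cyclin D2, which rose to 23.03, 25.4 and 32.4 TPM in NoTumor-CD40 libraries, against 4.56, 12.5 and 9.05 TPM in NoTumor-NoCD40 libraries (log2 fold change 1.46 ± 0.26, edgeR adjusted p = 0.0160). Of 7 CDK inhibitors 0 passed; Cdkn1a, which encodes p21, had 79.1, 54.3 and 87.2 TPM with agonist, against 38.3, 25.9 and 23.8 TPM without (log2 fold change 1.20, edgeR adjusted p = 0.104), and Cdkn2a was at 1.15. Of 19 E2F, RB and DREAM factors 0 passed, the median was -0.24, and the repressor E2f8 (-1.42) and E2f2 (-1.19) had the lowest p. Of 40 further replication genes 0 passed and 35 were below 0, with a median of -0.35 and Prim1, the primase subunit (-0.96), and Rpa2 of the single-strand binding complex (-0.90) lowest by p. Of 50 further mitosis genes 0 passed and 48 were below 0, with a median of -0.67 and the kinetochore genes Nuf2 (-1.20) and Cenpa (-1.06) lowest by p. Of 18 checkpoint genes 0 passed, with the Cdk1-inhibiting kinase Wee1 at 0.90 and the checkpoint kinase Chek1 at -1.17. Of 25 further nucleotide genes 1 passed, Samhd1, which degrades dNTPs, and it rose: 423, 392 and 552 TPM with agonist, against 227, 219 and 221 TPM without (log2 fold change 0.78 ± 0.18, edgeR adjusted p = 0.0431), with 21 of the 25 below 0.

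In mice with a tumor none of these 7 lists had a gene past the threshold in Tumor-CD40 over Tumor-NoCD40 libraries. Ccnd2 was at 0.94 ± 0.26 (edgeR adjusted p = 0.150) and Cdk6 at 0.48. Among the inhibitors Cdkn2b was at -1.20 and Cdkn2c at -0.60, and Rb1 was at -0.33 beside E2f3 at 0.66. Further replication and mitosis genes had medians of -0.038 and 0.089, with Pold2 at 0.33, Rpa3 at -0.38, Aspm at 0.75 and Kif4 at 0.81. Of the checkpoint genes Brca2 was at 0.69 and Chek1 at 0.70, and of the nucleotide genes the folate enzymes Mthfd2 and Shmt1 were at -1.002 and -0.77.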

How the data were processed

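RNA-seq of 12 libraries was analysed, 3 in each of 4 groups taken from the labels. Libraries were made with the Qiagen RNeasy Plus Micro and NEBNext Ultra II Directional kits, per the labels' protocols, and quantified with Salmon on mm10, per the submitters' processing notes; the strand setting is not given in the sources used here. The authors deposited expected counts and TPM per transcript. With GENCODE M21 (GRCm38), 136176 of 136288 transcripts were assigned to genes, values were summed, and expected counts were rounded to whole numbers. The other 112 held 0.0279% to 0.0457% of a library's counts.

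Tests used edgeR 4.0.16 in R 4.3.3 on all 12 libraries: TMM factors 0.936 to 1.07, filterByExpr (minimum count 10, total 15), the quasi-likelihood test with legacy = FALSE, two-sided, 8 residual degrees of freedom, and Benjamini-Hochberg adjustment over 18095 genes at 0.05. The SE was taken as the size of the log2 fold change divided by the root of F. The members and lists were chosen with earlier results of these data known. Fold changes are printed for members past the threshold, the 12 with the lowest p in NoTumor-CD40 against NoTumor-NoCD40, 8 in each other pairwise comparison and 5 in the interaction, and of other lists up to 3 called genes or the 2 with the lowest p; others are said to be chosen later or summarised. The code was tested on simulated data. Alternatives were RLE factors, no filter, legacy = TRUE, DESeq2 1.42.0, limma 3.58.1 on log2(TPM + 1) and log2(TPM + 0.1), a block by title prefix, only the groups compared, each library left out, and, chosen after seeing the data, protein-coding transcripts only.

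Exons of 14 members overlap a gene on the other strand (Ccna2, Cdc20, Fen1, Gins2, Kif20a, Lig1, Mcm7, Nusap1, Plk1, Pole, Prc1, Rfc4, Tk1 and Ube2c), and 4 members (Ccnb1, Ccnb2, Pcna and Tyms) have a pseudogene named after them, so their reads may be divided less certainly.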

Additional observations from a re-analysis of the deposited data

How the results depend on the processing

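Of 856 values of named members under the alternatives, 837 kept direction and side of the threshold, 10 (all Dtymk) lost the call, 7 gained one and 2 reversed: Cdk1 in Tumor-NoCD40 over NoTumor-NoCD40, at -0.41 by edgeR, was 0.055 by limma on log2(TPM + 1) and 0.057 on log2(TPM + 0.1). The cause of the reversal was not tested. Of the 41 named results, only Dtymk in NoTumor-CD40 over NoTumor-NoCD40 passed the threshold in the main fit. That call was lost in 10 of 21 alternatives. For the other results, keeping the side of the threshold means having stayed short of it.

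For NoTumor-CD40 over NoTumor-NoCD40, 261 genes and 1 member were called by edgeR. Without a filter on low counts 401 genes were called. DESeq2 called 923 genes and 4 members (Dtymk, Rfc4, Pcna and Kif20a). limma called 31 genes on log2(TPM + 1) and 29 on log2(TPM + 0.1), with 0 members in each, and 14 members lower at an unadjusted p under 0.05 in each (against 4.58% and 4.70% of all genes). The fit with only the groups compared called 173 genes and 0 members. Leaving out 1 library gave 22 to 946 genes, 0 to 5 members called, 8 to 30 members lower at an unadjusted p under 0.05 (against 3.26% to 11.2% of all genes), and member medians from -0.91 to -0.41. Dtymk ran from -1.22 to -0.86 over all alternatives, with adjusted p from 0.00127 to 0.184.

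For Tumor-CD40 over Tumor-NoCD40, 124 genes were called, and 200 without a filter, 61 with legacy = TRUE, 314 by DESeq2, 29 and 21 by limma on log2(TPM + 1) and log2(TPM + 0.1), 25 with only the groups compared and 26 to 226 with 1 library left out, with member medians from -0.090 to 0.21. For Tumor-NoCD40 over NoTumor-NoCD40, 0 genes were called (1053 at an unadjusted p under 0.05), and 1 without a filter, 24 by DESeq2 and 0 to 2 with 1 library left out, with member medians from -0.32 to 0.015. For Tumor-CD40 over NoTumor-CD40, 36 genes were called, and 89 without a filter, 0 with legacy = TRUE, 161 by DESeq2, 12 and 6 by limma on log2(TPM + 1) and log2(TPM + 0.1), 3 with only the groups compared, 6 with protein-coding transcripts only and 0 to 71 with 1 library left out, with member medians from 0.26 to 0.64. For the interaction, 0 genes were called, and 16 by DESeq2, 2 by limma on log2(TPM + 1) and 0 with 1 library left out, with member medians from 0.42 to 0.90. In these 4 comparisons 0 members were called under every alternative run, those that leave out 1 library included.

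Title prefixes are not stated to mark pairs. NoTumor-NoCD40 library 3 has a prefix of its own, so a fit with a block by prefix in effect estimates its group from libraries 1 and 2. Deviations of libraries with the same prefix correlated at 0.00358 to 0.228 (median 0.0629), with 3 of 15 pairs over 0.1. Between libraries of different groups and different prefixes they correlated at -0.190 to 0.0877 (median -0.0292), with 0 of 39 pairs over 0.1. With the replicate block by prefix, 48, 229, 0, 83 and 0 genes were called in the order above, 0 members were called, and 25 members were lower without a tumor at an unadjusted p under 0.05 (against 7.57% of all genes); Dtymk was at -1.05 (adjusted p = 0.0899). With protein-coding transcripts only, Dtymk was at -1.04 (adjusted p = 0.0449) and 21 members were lower (against 7.48% of all genes).

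For NoTumor-CD40 over NoTumor-NoCD40 the members' SEs were 0.18 to 0.50 beside a median log2 fold change of -0.63. Depth removed none of the members, since all 45 passed the filter on low counts.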
